A study of Oryctolagus cuniculus with 4 samples.

Results

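TFAM, PNPT1, SUPV3L1 and TWNK are nuclear genes whose proteins work in the mitochondrion, where they start transcription, break down RNA and copy the mitochondrial genome. They were taken by symbol from a list of 10 genes that make and keep mitochondrial RNA, and 4 of the 10 were found among the 13913 genes of the table. The other 6 listed genes, POLRMT, TFB2M, LRPPRC, SLIRP, POLG and FASTKD2, were not analysed here. The list is named for transcription and RNA maintenance, and among the 4 genes TWNK acts on mitochondrial DNA rather than on RNA.

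The mitochondrial genome is a small circle that both strands transcribe as long RNAs. A dedicated polymerase needs the DNA-bending protein TFAM, which also coats the circle into nucleoids, and a further transcription factor to start. The long RNAs are cut into messenger, transfer and ribosomal RNAs, and the helicase SUPV3L1 together with the exonuclease PNPT1 degrades what is not kept, in particular RNA of the strand that encodes little. Cells with few or faulty mitochondrial genomes lose respiratory chain subunits.

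Rabbit ear hypertrophic scar (HS), a raised scar that forms after skin and perichondrium are cut from the ventral ear, was studied in 2 groups of 2 droplet single-cell RNA-seq libraries (10x Genomics). All rabbits were labelled WT and were female according to the methods of the study, and the sources used here name no strain. The HS group received nothing. The drug-loaded MNs group received 1 weekly patch of microneedles (MNs) for 3 weeks, and its libraries are called treated below. The tips of the patch stay in the scar and hold a prodrug, from which a 5-fluorouracil derivative is released. No library of patches without drug was analysed here, so needle and drug cannot be told apart. Each library came from 1 scar tissue, of which the ventral epidermis and dermis were kept. The study describes the samples of a group as biologically independent, without saying whether 1 rabbit gave more than 1 of them, so the tests below measure the spread between tissues.

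The table gives 1 value per gene and library, scaled to a common total. A unit below is 1 part in 1000000 of that total, and the values are called relative expression. Sequencing depth was therefore unknown, and 11844 to 12059 genes per library had a value above 0. Because each value summarises a whole mixture of cells, fewer cells of a type and less RNA per cell cannot be told apart. Skin markers were present in every library: the 6 suprabasal keratinocyte genes with a row took 3.16% to 5.28% of the total and the 6 fibroblast genes 2.25% to 4.86%.

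No difference between drug-loaded MNs and HS was detected in any of the 4 genes. Their log2 fold changes ran from -0.02 in PNPT1 to 0.13 in TFAM, with a median of 0.07, beside a median of 0.12 over all 9348 tested genes. All 4 passed the filter on low values, a mean of at least 1 unit. None passed an adjusted p of 0.05 in limma (Benjamini-Hochberg over all tested genes), where 0.0428% of all tested genes passed. 0 of the 4 had an unadjusted p under 0.05, against 8.65% of all tested genes. In 0 of the 4 did the groups stand apart, while over all tested genes 26.6% were higher in both drug-loaded MNs libraries than in both HS libraries and 11.2% were lower in both. Under median ratio scaling, which took the median of all genes to -0.01, those shares were 18.4% and 20.5%, the groups still overlapped in all 4 members, and all 4 fold changes were below 0 with a median of -0.07.

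TFAM (ENSOCUG00000014405), the packaging protein and transcription factor of the mitochondrial genome, stood at 20.8 units in HS replicate 1 and 30.4 in HS replicate 2. In the treated libraries it stood at 31.6 units in replicate 1 and 24.0 in replicate 2. The highest and the next highest value thus came from different groups, and the lowest came from HS replicate 1. The HS mean was 25.6 ± 6.75 units and the treated mean 27.8 ± 5.40 units (SD, n = 2 per group). Treated minus HS was 0.13 on the log2(value + 1) scale (SE 0.29, adjusted p 0.942 in limma), and its 95% interval reached from -0.55 to 0.80.

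PNPT1 (ENSOCUG00000006889), the exonuclease known as polynucleotide phosphorylase, had nearly the same group means. It stood at 24.9 and 36.3 units in HS replicates 1 and 2, and at 34.9 and 25.1 units in the treated replicates 1 and 2. The libraries formed a low pair and a high pair with 1 library of each group in both. The HS mean was 30.6 ± 8.09 units and the treated mean 30.0 ± 6.89 units (SD, n = 2 per group). Treated minus HS was -0.02 on the log2(value + 1) scale (SE 0.29, adjusted p 0.990 in limma), with a 95% interval from -0.70 to 0.66.

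SUPV3L1 (ENSOCUG00000004933), the helicase that unwinds RNA for PNPT1, was the member with the closest drug-loaded MNs libraries. It stood at 16.1 and 21.6 units in HS replicates 1 and 2, and at 20.3 and 19.2 units in the treated replicates 1 and 2. Both treated libraries lay between the HS libraries. The HS mean was 18.8 ± 3.92 units and the treated mean 19.7 ± 0.738 units (SD, n = 2 per group). Treated minus HS was 0.08 on the log2(value + 1) scale (SE 0.26, adjusted p 0.964 in limma), with a 95% interval from -0.54 to 0.70. In RefSeq genes of the assembly mOryCun1.1, SUPV3L1 overlapped 1 other gene, LOC108178480, and the other 3 members overlapped none. Whether counting used the strand is not stated in the sources used here, so the value of SUPV3L1 may hold reads of that neighbour.

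TWNK (ENSOCUG00000002746), the helicase Twinkle that opens mitochondrial DNA ahead of the replicating polymerase, stood at 5.87 and 10.4 units in HS replicates 1 and 2. In treated scars it stood at 9.16 units in replicate 1 and 7.34 in replicate 2. Both treated libraries again lay between the HS libraries. The HS mean was 8.15 ± 3.23 units and the treated mean 8.25 ± 1.29 units (SD, n = 2 per group). Treated minus HS was 0.06 on the log2(value + 1) scale (SE 0.34, adjusted p 0.978 in limma), with a 95% interval from -0.73 to 0.84, the widest of the 4.

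**Figure D1:**
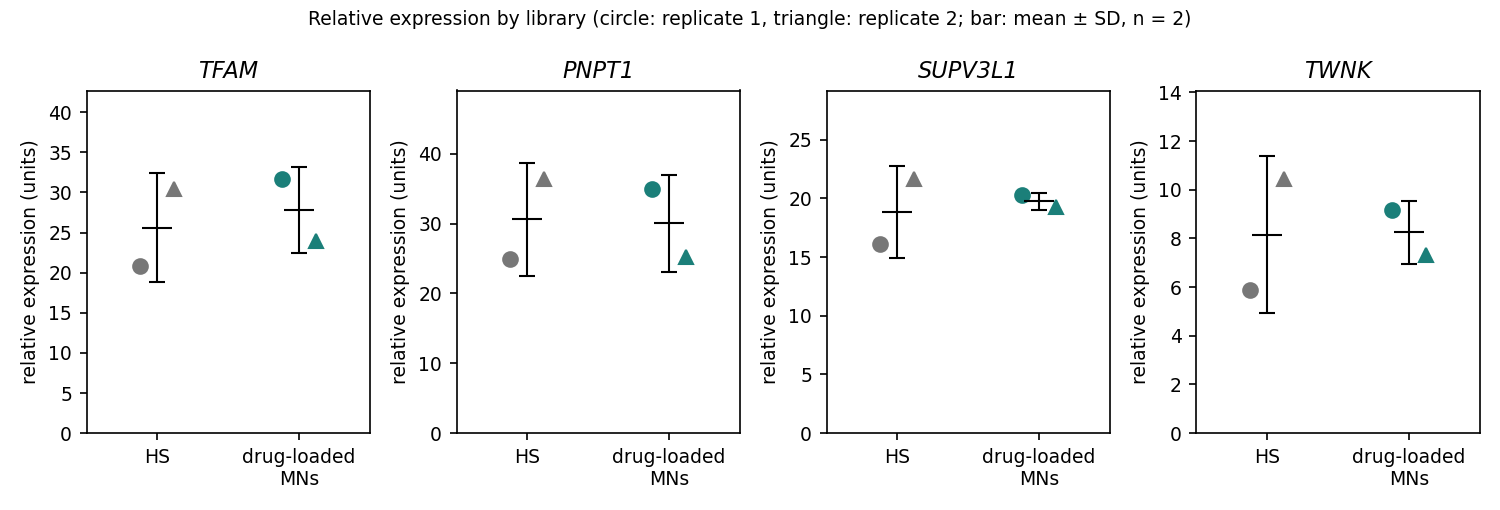
Relative expression (units, 1 part in 1000000 of the library total) of TFAM, PNPT1, SUPV3L1 and TWNK in each library, with the mean ± SD of each group (n = 2). In each gene HS replicate 1 is the lowest point, drug-loaded MNs replicate 2 is the next, and the groups overlap.

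**Figure D2:**
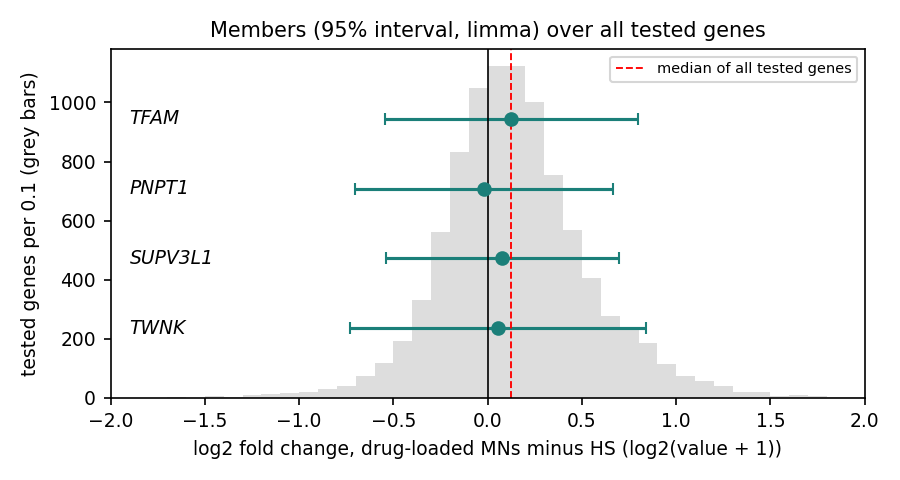
Log2 fold changes of the 4 genes with 95% limma intervals (points and bars) drawn over the distribution for 9348 tested genes (grey bars, genes per 0.1; values beyond the axis are not drawn). All 4 intervals hold 0 and lie between -0.73 and 0.84, and the dashed line marks the median of all genes, 0.12.

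The members shared their lowest and next lowest library, which came from different groups. SUPV3L1 differed little between the treated replicates (20.3 and 19.2 units). HS replicate 1 was the lowest library in 4 of 4 members, and drug-loaded MNs replicate 2 was the next lowest in 4 of 4. HS replicate 1 was also the lowest library for 44.5% of all tested genes, and for 16.9% of all tested genes it was the lowest with drug-loaded MNs replicate 2 next. This order was noticed in the values and is given as a description.

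Between the HS tissues, replicate 2 exceeded replicate 1 by 0.52 in TFAM, 0.53 in PNPT1, 0.41 in SUPV3L1 and 0.74 in TWNK on the log2(value + 1) scale, where the median over all tested genes was 0.12. Between the treated tissues, replicate 2 minus replicate 1 was -0.38 in TFAM, -0.46 in PNPT1, -0.07 in SUPV3L1 and -0.29 in TWNK, beside a median of -0.11 over all genes. In each of the 4 genes the gap between the HS replicates was thus larger than the fold change between the groups. Leaving out 1 library therefore set the sign: the median of the members was -0.21 without HS replicate 1 and 0.33 without HS replicate 2, and leaving out treated replicate 1 or 2 gave -0.08 or 0.20.

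Marker lists were laid beside this order, and none of their genes with a row was at 0 in all libraries. The 5 of 7 cycling genes with a row summed to 137 and 52.3 units in HS replicates 1 and 2 and to 293 and 77.0 in drug-loaded MNs replicates 1 and 2, so that HS replicate 2, high in the members, was the lowest library for cycling genes. The 5 of 7 basal keratinocyte genes summed to 8265, 5718, 7678 and 4040 units in the same order, again with HS replicate 2 below HS replicate 1. KRT5 and KRT14 were the largest parts of that sum, and they and ITGA6 had HS replicate 2 below HS replicate 1. TP63 (153, 274, 211 and 155 units) and COL17A1 (176, 392, 323 and 230 units) instead had the order of the members. The 4 of 8 dissociation response genes summed to 10884, 17369, 11201 and 11847 units, with HS replicate 2 the highest and HS replicate 1 the lowest. HS replicate 2 was the highest in each of these genes. HS replicate 1 was the lowest in ATF3 and EGR1, treated replicate 1 in JUN and treated replicate 2 in FOS. The 4 of 6 mural genes, markers of pericytes and smooth muscle, summed to 373, 686, 856 and 665 units. HS replicate 1 was the lowest in this sum and drug-loaded MNs replicate 2 the next, as in the members. Of the single mural genes, MYH11 and RGS5 had that order. ACTA2 (HS replicate 2 next to the lowest) and PDGFRB (HS replicate 2 the lowest) did not. The median difference of the mural genes, replicate 2 minus replicate 1, was 0.93 between the HS tissues and -0.36 between the treated tissues. These medians had the signs seen in the members, but PDGFRB, at 67.3 and 59.8 units in HS replicates 1 and 2, had the other sign in HS. The suprabasal keratinocyte sums (lowest in treated replicate 1), the endothelial sums (lowest in treated replicate 1), the fibroblast sums (lowest in HS replicate 2) and the macrophage sums (HS replicate 2 next to the lowest) did not have the members' order. The part of these lists in the members' values was not tested.

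**Figure D3:**
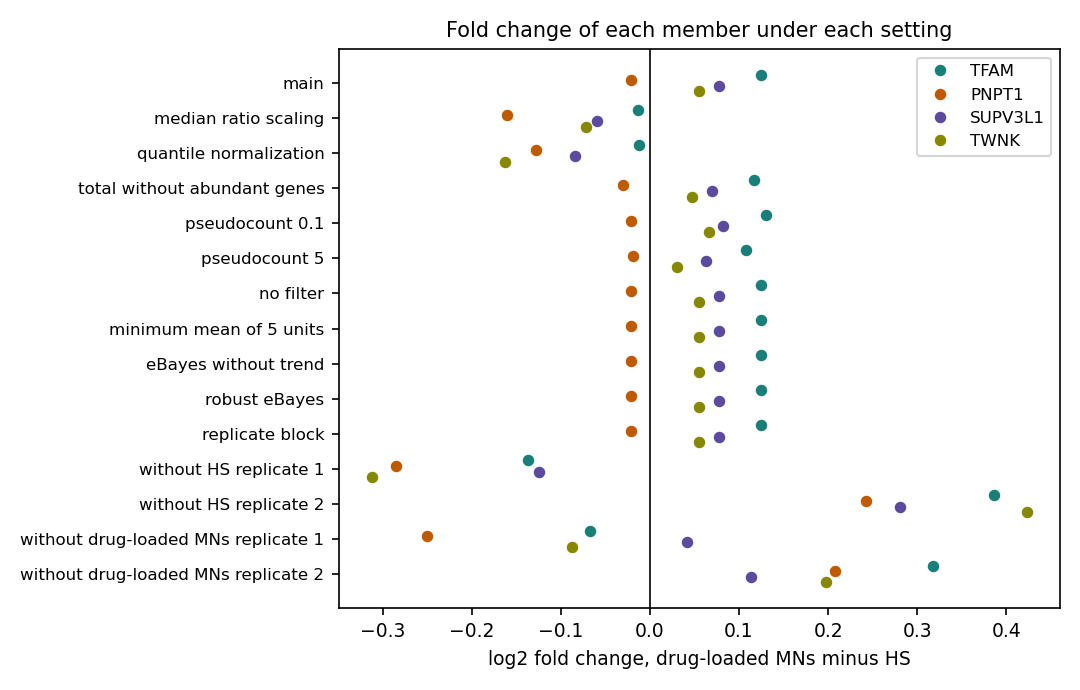
Log2 fold change of each of the 4 genes (drug-loaded MNs minus HS, one colour per gene) as reported (top) and under 14 other settings. Points lie near 0 under most settings, and the widest moves follow the removal of 1 library, from -0.31 to 0.42 in TWNK.

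A ratio of 2 genes within a library does not depend on how the library was scaled. Of the 6 ratios among the 4 members, 5 overlapped between the groups. The ratio of SUPV3L1 to PNPT1, the partners of the RNA-degrading complex, was 0.646 and 0.595 in the HS tissues against 0.581 and 0.765 in the treated tissues (replicates 1 and 2). The helicase TWNK relative to TFAM was 0.281 and 0.343 in the HS tissues against 0.290 and 0.306 in the treated tissues.

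The exception was PNPT1 relative to TFAM. That ratio was 1.19 and 1.20 for the HS libraries against 1.10 and 1.05 for the treated ones. On the log2 scale the mean difference, treated minus HS, was -0.15, beside a pooled SD of 0.0371 within groups. That SD rests on 2 libraries per group. The ratio was singled out from 6 after the values were seen. A full separation of 2 libraries from 2 cannot give an exact permutation p (two-sided) below 0.333, so no test was made. With that floor, 1 separated ratio among 6 is not read as a difference between the groups. Levels of the genes themselves are not compared here, because it is not stated whether gene length was corrected for.

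Mitochondrially encoded RNA differed between the groups where the members overlapped. The study limited the mitochondrial share of the cells it kept. Whether the values here come after that cut is not stated in the sources used here. Of each library total, the 13 protein-coding genes of the mitochondrial genome made up 2.75% and 2.80% in HS against 4.37% and 4.58% in treated scars. Of these genes, ATP6, COX3, ND3 and ND4 were at 0 in all 4 libraries. That share, and the ratios to it below, therefore rest on the other genes, and the origin of the zeros was not tested. The 4 members summed to 67.7 and 98.8 units in HS against 96.0 and 75.7 units in treated scars. Per 10000 units of mitochondrially encoded RNA there were 24.6 and 35.3 units of the 4 members in HS against 22.0 and 16.5 in treated scars, so the groups did not overlap. The mean log2 difference was -0.63, beside a pooled SD of 0.33. COX2 was the largest part of the mitochondrial total in all 4 libraries, at 16840 to 21194 units, and its groups overlapped. Without COX2 in the sum, there were 77.0 and 88.5 units of the members per 10000 in HS against 37.3 and 30.8 in treated scars. COX2 was left out after its values were seen. Leaving out a gene whose groups overlapped favours a wider gap between the groups, so no conclusion is drawn from that ratio. The members' sum overlapped between the groups, and the mitochondrially encoded share did not. Within each group, both ratios moved in the direction of the members' sum. Because the mitochondrial RNA divided by was higher in both treated libraries, a nuclear sum that changed little also gives a lower ratio there. The RNA processing and decay list described below summed to 675 and 656 units in HS against 658 and 603 in treated scars. No ratio was worked out for other nuclear lists, so the lower ratio is not read as particular to the members. In the same libraries all 6 fibroblast genes and all 7 macrophage genes with a row were higher in both treated libraries (0 of the 13 passed in limma). Over all tested genes 26.6% were higher in both. The summed macrophage level was 78.9 and 97.1 units in HS against 198 and 198 in treated scars. The part of that in the mitochondrial values was not tested.

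**Figure D4:**
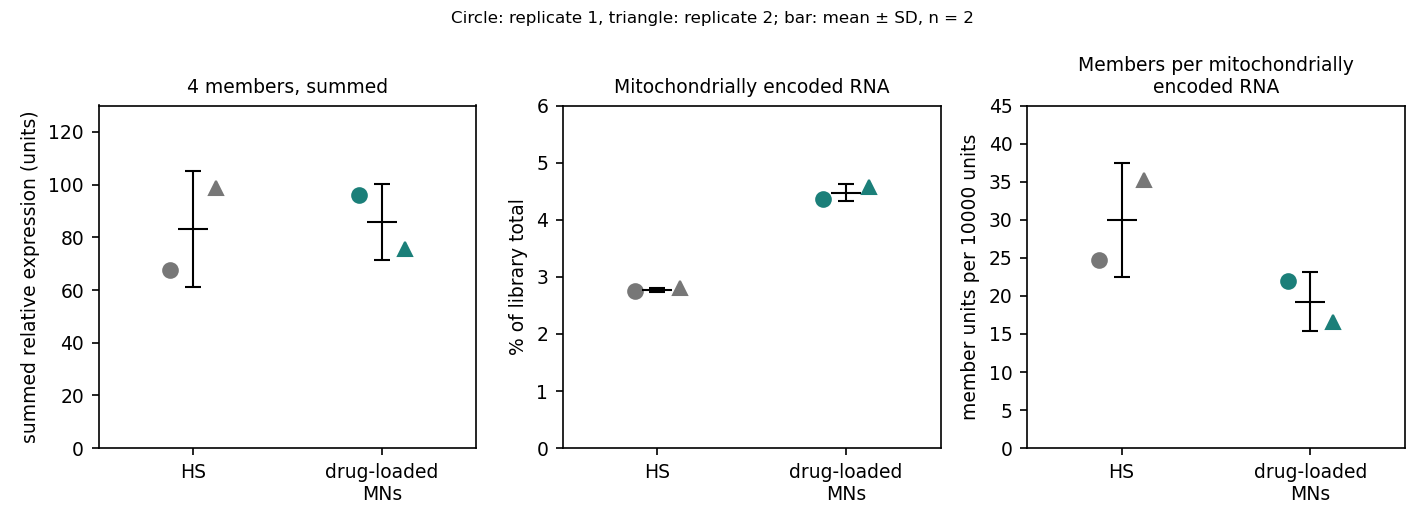
Summed relative expression of the 4 members (left, units), share of mitochondrially encoded RNA (middle, % of the library total) and member units per 10000 units of that RNA (right), by library with mean ± SD (n = 2). The left panel overlaps between HS and drug-loaded MNs, and the middle and right panels do not. The ratio on the right was not worked out for other nuclear genes.

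Genes of both strands had higher values in the treated libraries. ND6, the only messenger on the sparsely coding strand, stood at 22.6 and 99.6 units in HS against 254 and 290 units in treated scars. COX1, on the other strand, stood at 3628 and 4223 units in HS against 8081 and 7863 units in treated scars. Per 100 units of COX1 there were 0.623 and 2.36 units of ND6 in HS against 3.14 and 3.69 in treated scars. The HS libraries differed more from each other in this ratio than the treated ones did. Because strand use in counting is not stated, the ND6 values may hold reads of the other strand. ND5, a subunit of complex I, stood at 612 and 940 units in HS against 2088 and 1801 units in treated scars. Of the 9 mitochondrially encoded genes above 0, 8 were higher in both treated libraries, against 26.6% of all tested genes. Of the same 9, 7 had an unadjusted p under 0.05 in limma, against 8.65% of all tested genes in both directions. ND4L, at 408 and 677 units in HS against 3613 and 3570 in treated scars, was the 1 that passed in limma (adjusted p 0.0455), with CYTB next (adjusted p 0.0617), and ND4L lost that call in 8 of 14 alternatives (adjusted p up to 0.484). ATP6, COX3, ND3 and ND4 were listed at 0 in all 4 libraries.

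No nuclear gene of the wider machinery passed in limma. In the transcription and nucleoid list, which holds the elongation factor TEFM, the rRNA methyltransferase TFB1M and the MTERF family of DNA-binding proteins, 5 of 11 genes had a row. 3 of them had a positive and 2 a negative fold change, the median was 0.05, and 0 had an unadjusted p under 0.05. Of the RNA processing and decay list, which holds the FASTK family, the RNase P subunits TRMT10C and HSD17B10 and the poly(A) polymerase MTPAP, 16 of 21 genes were tested. They ran from -0.35 to 0.40 with a median of -0.02, and 0 had an unadjusted p under 0.05. Of the tRNA and rRNA modification list 10 of 19 genes were tested, from -0.28 to 0.45 with a median of 0.03, again with 0 at an unadjusted p under 0.05.

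In the list for replication and nucleotide supply, 9 of 16 genes were tested, with a median of 0.13. SLC25A33, a carrier that brings pyrimidine nucleotides into mitochondria, was the 1 gene at an unadjusted p under 0.05, and it did not pass in limma (log2 fold change -0.77, SE 0.24, adjusted p 0.406). It stood at 34.5 and 32.0 units in HS against 18.2 and 19.9 in treated scars, so it was lower in both treated libraries. Among regulators of mitochondrial genes, 9 of 12 were tested, NRF1, GABPA and the PGC-1 coactivators among them, with a median of -0.04. MYC, a broad growth regulator, was the 1 at an unadjusted p under 0.05 and did not pass in limma (log2 fold change -0.62, SE 0.23, adjusted p 0.485). It stood at 389 and 477 units in HS against 255 and 306 in treated scars, lower in both treated libraries.

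Nuclear-encoded markers of mitochondrial mass, such as citrate synthase (CS) and the VDAC channels, were not higher alongside the mitochondrial RNA. Of 10 tested genes out of 18 listed, 9 had a negative fold change, the median was -0.18, and 0 had an unadjusted p under 0.05. Over all 9348 tested genes, 3305 had a negative fold change. Signs of small values changed with scaling, and for this list no other scaling is given. The 10 genes summed to 4574 and 3699 units in HS against 3730 and 3239 units in treated scars, and the groups overlapped.

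**Figure D5:**
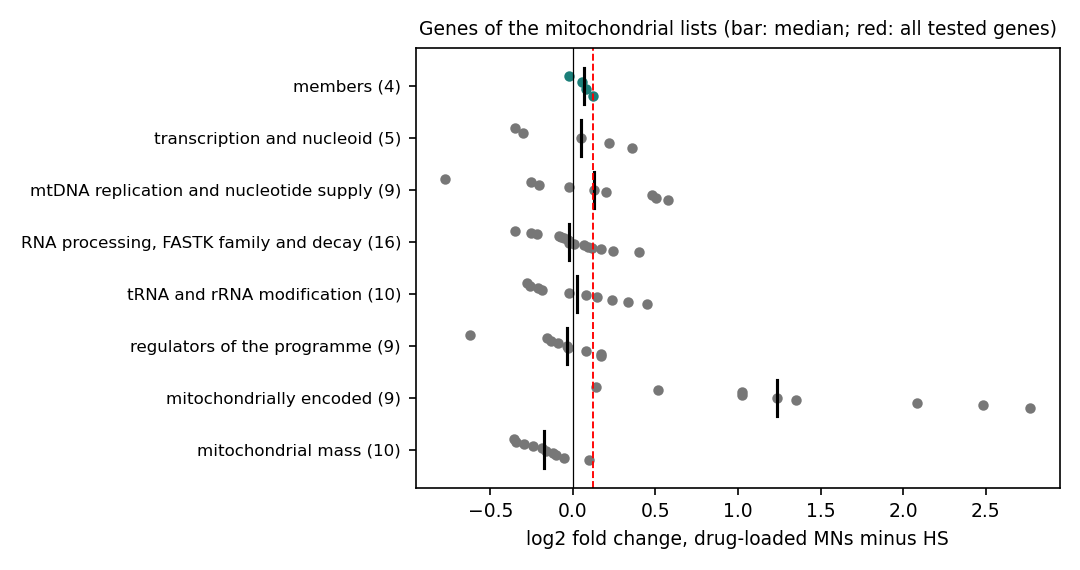
Log2 fold changes (drug-loaded MNs minus HS) of single genes in the members and in 7 further lists, with the number of tested genes in brackets, the list median as a black bar and the median of all tested genes (0.12) as a dashed line. The median of the mitochondrially encoded genes, 1.24, lies apart from the medians of the nuclear lists, which run from -0.18 to 0.13. Single genes do not all lie apart: COX2 (0.14) and ND2 (0.51) fall below the nuclear gene LIG3 (0.57).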

How the data were processed

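The members and the gene lists were chosen with earlier results of these data known. The authors ran Cell Ranger (2.1.1 in the submitters' notes), which counts unique molecular identifiers, and Seurat, with filters on cells that included the mitochondrial share. How doublets (droplets that caught more than a single cell) were treated is not given in the sources used here, and values per library do not allow them to be called. Those notes name the mouse build mm10, while the gene identifiers are rabbit ones. The signal values deposited by the authors, in a table named for FPKM, summed to 10000 in each library. How cells were combined is not stated, nor whether a correction between samples that the methods mention was applied. Only 18.6% to 21.7% of low values lay within 0.1 of a whole multiple of the smallest value, so counts were not recovered and no count model was run.

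Values were rescaled to 1000000 per library, genes whose mean was below 1 unit were dropped, and log2(value + 1) was fitted with limma 3.58.1 (lmFit, eBayes with trend) in R 4.3.3 without covariates. Fold changes on this scale understate those of low genes. P-values were two-sided and adjusted by Benjamini-Hochberg over all 9348 genes with a threshold of 0.05. The fit was tested on simulated data. Named genes were all members, and from each mitochondrial list up to 2 rises and 2 falls with the smallest unadjusted p under 0.05 and no overlap. COX1, COX2, ND5 and ND6 were named after their values were seen. The fit was repeated with other scalings, pseudocounts, filters and variance models, with a replicate block and without each library. Gene symbols were matched to the RefSeq list of mOryCun1.1 for neighbours only. No sequences were used here.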

Additional observations from a re-analysis of the deposited data

How the results depend on the processing

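0 members passed under any of the 14 alternatives, with adjusted p values of at least 0.525 in limma, and with the replicate block the count was 0 of 4 members. Replicate numbers did not establish pairs (correlation of deviations 0.22 over 2 pairs). Over all genes, where 4 passed, 0 did so with no filter, a pseudocount of 5, a total without abundant genes, quantile normalization or median ratio scaling. It was 1 with eBayes without trend and 241 with the replicate block, and leaving out 1 library gave 0 to 75. The cause was not tested.

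Scaling set the sign of small values. Under median ratio scaling the fold change was -0.014 in TFAM, -0.059 in SUPV3L1 and -0.071 in TWNK, where the median of all genes was -0.01. Under quantile normalization it was -0.012 in TFAM, -0.085 in SUPV3L1 and -0.16 in TWNK. Leaving out 1 library gave -0.14 to 0.39 in TFAM, -0.28 to 0.24 in PNPT1, -0.13 to 0.28 in SUPV3L1 and -0.31 to 0.42 in TWNK. The log2 difference in members per unit of mitochondrially encoded RNA, an alternative added after seeing the data, ranged from -0.89 to -0.37 when 1 library was left out and was -0.63 under median ratio scaling and a total without abundant genes, which keep ratios within a library; it was not run under quantile normalization. With depth unknown, its effect on precision was not measured.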
